A study of Mus musculus with 28 samples.

Results

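The step from the DN2/3 to the DN4 stage was followed in thymocytes of mice that carry an Lmo2 transgene (Lmo2tg), by RNA sequencing of 5 DN4 and 5 DN2/3 libraries. These are 10 of the 28 libraries of the series, chosen by their titles, and libraries of the 2 stages with the same replicate number were treated as a pair. All genes with enough reads were tested, 12977 of the 24421 gene symbols in the count table. The other libraries are 8 from wild-type C57BL/6 mice (4 at each stage) and 10 from mice labelled Lmo2tg; Ldb1-KO (5 at each stage), called Ldb1-KO here, which carry the transgene and a deletion of Ldb1. The study as a whole asks, per its title, whether Ldb1 is needed for the self-renewal of thymocytes and the T-cell leukemia that Lmo2 induces, and the present comparison shows what changes with stage while the transgene is present and Ldb1 is intact. The promoter that drives the transgene, the ages of the mice and the Cre line behind each Ldb1-KO sample are not stated in the labels. No label says whether each replicate is a mouse of its own. The p-values therefore measure only how far these libraries spread, in part perhaps for technical reasons.

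Double-negative (DN) thymocytes lack both CD4 and CD8. At the DN2 and DN3 stages they carry CD25, depend on Notch signals from the thymic stroma and rearrange the T-cell receptor beta gene. A cell with a working beta chain signals through the pre-T-cell receptor, divides several times, turns off CD25 and Notch target genes, and passes through DN4 to the double-positive stage, where CD4 and CD8 are both present. Lmo2 is a LIM-only adaptor protein that normally acts in blood stem cells, is shut off early in the T lineage, and joins basic helix-loop-helix and GATA factors in a complex held together by Ldb1.

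The library totals ran from 31.3 to 74.7 M counts in Lmo2tg, with medians of 74.1 M at DN2/3 and 45.8 M at DN4, and DN2/3 replicates 4 and 5 had the lowest totals of their stage. Levels are CPM, counts scaled to a common library size with TMM factors. They follow the number of reads and are not divided by gene length, so levels are compared between libraries and not between genes. The transgene check was positive in each of the 10 libraries: Lmo2 (mm10 chromosome 2, 103957986 to 103981878) had 37.5, 29.6, 32.9, 28.2 and 34.9 CPM at DN2/3 and 68.9, 41.9, 37.7, 36.1 and 40.9 CPM at DN4, against 0.272 ± 0.105 and 0.0778 ± 0.0708 CPM in wild type (mean ± SD, n = 4 each). Counts by gene symbol cannot tell transgene transcripts from those of the resident gene. Ldb1 was present throughout, with 399, 314, 394, 403 and 477 CPM at DN2/3 and 381, 298, 247, 371 and 428 CPM at DN4. The labels call the cells CD4 T cells, while Il2ra, which encodes CD25, marked the DN2/3 libraries and Cd3e, which encodes a signalling chain of the receptor, had between 282 and 369 CPM in every Lmo2tg library. In bulk libraries such as these, fewer cells of a type and less RNA per cell cannot be told apart.

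Between the stages, the CD25 gene Il2ra, the Notch receptor genes Notch1 and Notch3 and the terminal transferase gene Dntt fell, and the CD8 and CD4 genes rose. Of 12977 genes tested with edgeR's quasi-likelihood model, 1065 rose (8.21%) and 1291 fell (9.95%) at DN4, together 18.2%, of which 429 and 385 changed by over 2-fold. The median log2 fold over all genes was -0.02. The pairs matter for these counts: without the replicate block 321 genes were called, 183 higher and 138 lower, and of 119 stage calls of named genes 68 were lost. On the first principal component of the 10 libraries, which held 34.6% of the variance, the DN2/3 libraries lay between -61.5 and -17.2 and DN4 replicates 1, 2, 3 and 5 between 26.5 and 95.6, while DN4 replicate 4 lay at -27.6, within the range of DN2/3. Leaving out a single pair gave 1089, 1200, 1415, 2924 and 1092 called genes for pairs 1 to 5.

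Pair 4 showed the smallest change in genes called from the other pairs. Among the 2924 genes called from the other 4 pairs, 78.5% moved in the same direction in pair 4, with a slope of 0.22 on the fold of those pairs (log2 units per log2 unit, through the origin). The same measure, with each pair set against the other 4, gave 98.3%, 96.8%, 92.8% and 98.3% and slopes of 1.01, 0.56, 0.65 and 0.56 for pairs 1, 2, 3 and 5. In pair 4 the median log2 change was 0.18 for genes that rose in the other pairs and -0.34 for genes that fell there. In pair 1, at the other end, these medians were 1.68 and -1.12. The order was different when the yardstick was the 2849 genes that changed by over 2-fold between the stages of wild type: 81.6% of them moved the wild-type way in pair 4, against 63.5%, 68.5%, 62.2% and 72.4% in pairs 1, 2, 3 and 5. Slopes on the wild-type fold were low in every pair, 0.17 in pair 4 and 0.13, 0.14, 0.11 and 0.14 in pairs 1, 2, 3 and 5.

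The largest rises were led by genes at or near background in DN2/3. Trpm1, a cation channel gene (mm10 chromosome 7, 64153835 to 64269775), had 0.434, 0.245, 0.0275, 0.0656 and 0.120 CPM at DN2/3 and 43.7, 26.8, 8.35, 1.56 and 8.14 CPM at DN4, with every DN4 library above every DN2/3 library (log2 fold 6.69, SE 0.31, adjusted p = 0.000202). Btla, which encodes an inhibitory receptor of lymphocytes, had 0.803, 0.836, 0.165, 0.263 and 0.241 CPM at DN2/3 and 87.6, 63.0, 20.9, 2.25 and 18.2 CPM at DN4, again without overlap (log2 fold 6.31, SE 0.41, adjusted p = 0.000613). Egr3, a zinc finger factor induced by T-cell receptor signals, had 0.408, 0.346, 0.0412, 0.460 and 0.241 CPM at DN2/3 and 41.1, 17.5, 8.82, 0.574 and 7.08 CPM at DN4 (log2 fold 5.39, SE 0.87, adjusted p = 0.00697). Its groups did not overlap, yet DN4 replicate 4 lay only just above the DN2/3 libraries. Tnfrsf9, the costimulatory receptor 4-1BB, had 1.90, 0.605, 0.687, 0.394 and 0.722 CPM at DN2/3 and 64.9, 58.2, 18.5, 1.91 and 14.2 CPM at DN4 (log2 fold 4.94, SE 0.48, adjusted p = 0.00112). H2-Aa, an MHC class II chain, had 0.737, 0.778, 0.0824, 0.0656 and 0.542 CPM at DN2/3 and 53.6, 9.73, 10.1, 2.63 and 16.9 CPM at DN4 (log2 fold 5.29, SE 0.46, adjusted p = 0.000922). Zbtb7b, which encodes the CD4-lineage factor ThPOK, had 0.777, 0.231, 0.0275, 0.0656 and 0.120 CPM at DN2/3 and 57.8, 2.18, 1.60, 0.287 and 2.92 CPM at DN4 (log2 fold 4.91, SE 0.56, adjusted p = 0.00202). Its groups overlapped, and DN4 replicate 1 stood far above the rest. The GTPase-activating protein gene Arhgap20, the mTORC2-binding gene Prr5l, the heparan sulfate enzyme gene Hs3st3b1, Apol7b, Pydc3 and Gramd3 completed the 12, with log2 folds of 6.24, 5.96, 4.86, 5.04, 4.79 and 4.78 (adjusted p = 0.000681, 0.00112, 0.00375, 0.00759, 0.00352 and 0.0073). Apol7b and Pydc3 belong to families of near-identical genes, so their values are uncertain. Leaving out single pairs ended the calls of Apol7b without pair 1 or 2 (below the count filter) and Gramd3 without pair 2 (below the count filter).

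The largest falls were led by Il2ra (mm10 chromosome 2, 11642807 to 11693193), which encodes CD25, the surface marker that separates DN3 from DN4. It had 1000.3, 673, 875, 606 and 740.5 CPM at DN2/3 and 37.8, 54.7, 131, 54.6 and 77.0 CPM at DN4, and the groups were wide apart (log2 fold -3.55, SE 0.26, adjusted p = 0.000681). Mpzl2, an adhesion protein gene, had 159, 153, 302, 206 and 292 CPM at DN2/3 and 10.6, 36.7, 33.0, 33.8 and 57.4 CPM at DN4, without overlap (log2 fold -2.80, SE 0.25, adjusted p = 0.000922). The cadherin gene Cdh23 had 107, 58.4, 66.2, 60.0 and 32.0 CPM at DN2/3 and 6.60, 13.8, 6.10, 15.7 and 8.44 CPM at DN4, also without overlap (log2 fold -2.66, SE 0.33, adjusted p = 0.00273). Socs2, a feedback inhibitor of cytokine signalling, had 6.79, 13.9, 8.78, 5.35 and 12.6 CPM at DN2/3 and 1.29, 2.61, 2.00, 0.766 and 2.06 CPM at DN4 (log2 fold -2.45, SE 0.16, adjusted p = 0.000613). Acot5, an acyl-CoA thioesterase gene, had 42.0, 40.2, 48.5, 46.3 and 30.8 CPM at DN2/3 and 5.02, 8.91, 4.36, 14.7 and 5.89 CPM at DN4 (log2 fold -2.53, SE 0.25, adjusted p = 0.00115). Neither gene's groups overlapped. The gluconeogenic enzyme gene Fbp1, the glutamate receptor gene Gria2, the dynein regulator gene Drc7 and Shisa7 fell without overlap, with log2 folds of -2.60, -2.60, -3.20 and -2.51 (adjusted p = 0.000882, 0.00112, 0.00107 and 0.00133). The GTPase gene Rab38, the LIM domain gene Lmcd1 and the iron exporter gene Slc40a1 fell in all 5 pairs with overlapping groups and log2 folds of -2.63, -2.48 and -2.43 (adjusted p = 0.00235, 0.0101 and 0.00133). Pair 4 had the smallest change of the 5 pairs in 12 of the 12 rises and in 3 of the 12 falls, and pair 1 had the largest in 11 of the rises and in 4 of the falls. These genes were picked for moving the same way in all pairs, so that sameness is no result.

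**Figure D1:**
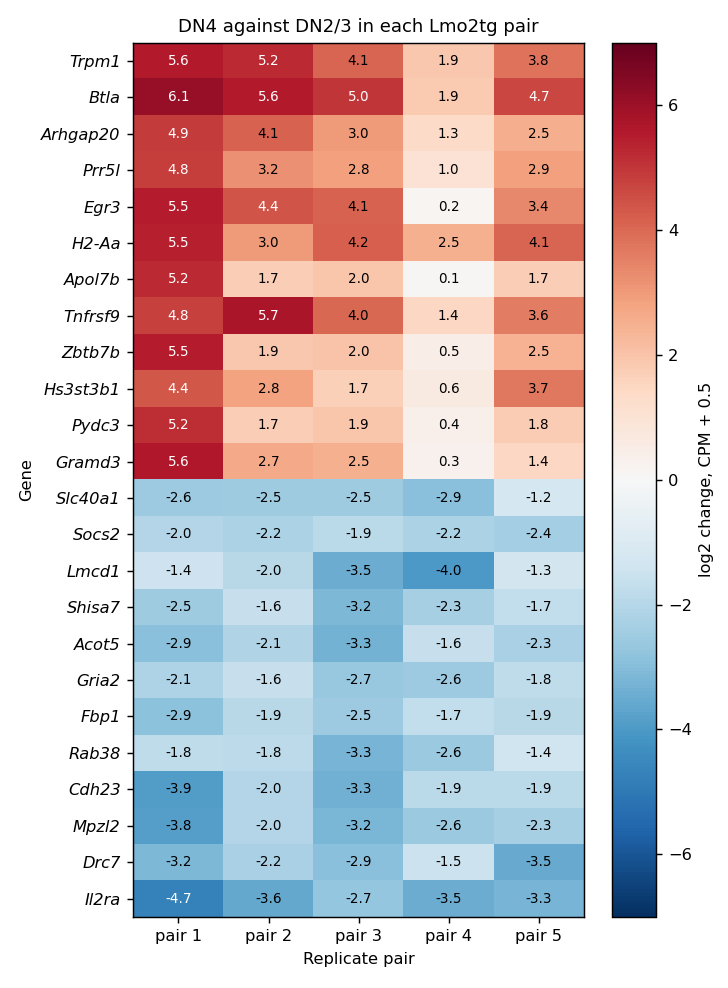
Heat map of the log2 change from DN2/3 to DN4 (CPM plus 0.5) in each of the 5 Lmo2tg replicate pairs (columns) for the 12 largest rises and the 12 largest falls (rows), with the value in each cell. In pair 4 the rises run from 0.08 to 2.47 and the falls from -4.01 to -1.51, while in pair 1 the rises run from 4.36 to 6.08.

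Of the 10 surface markers by which thymocytes are staged, 5 rose and 1, Il2ra, fell, against 8.21% and 9.95% of all genes. Leaving out pairs 1 to 5 in turn gave 3, 3, 3, 6 and 4 rises and 1, 1, 2, 2 and 1 falls, and without the replicate block 2 rose and 1 fell. Cd28, a costimulatory receptor, had 44.2, 102, 39.2, 60.2 and 44.6 CPM at DN2/3 and 369, 429.9, 215, 109 and 123 CPM at DN4, without overlap (log2 fold 1.99, SE 0.30, adjusted p = 0.00527). Cd2, an adhesion receptor, had 84.4, 81.2, 23.6, 38.0 and 34.9 CPM at DN2/3 and 349, 237, 107, 103 and 121 CPM at DN4, without overlap (log2 fold 1.81, SE 0.13, adjusted p = 0.000681). Cd5, an inhibitor of receptor signalling whose level follows signal strength, had 53.6, 41.8, 48.1, 48.4 and 53.1 CPM at DN2/3 and 405, 274, 137, 73.3 and 147 CPM at DN4 (log2 fold 1.85, SE 0.33, adjusted p = 0.00948). Its lowest DN4 library was replicate 4, still above all 5 DN2/3 libraries. Cd44, an adhesion receptor of the earliest DN cells, had 5.63, 4.74, 3.30, 1.90 and 3.19 CPM at DN2/3 and 30.4, 6.84, 12.3, 3.64 and 3.89 CPM at DN4 (log2 fold 1.25, SE 0.33, adjusted p = 0.037). Cd27, a marker of cells that have passed beta selection, rose by less (log2 fold 0.31, SE 0.08, adjusted p = 0.0349). Both had overlapping groups. Leaving out single pairs ended the calls of Cd44 without pair 1, 2 or 3 (adjusted p = 0.0545 to 0.117) and Cd27 without pair 1, 2, 3 or 5 (adjusted p = 0.0537 to 0.124). Kit, the stem cell factor receptor of the DN2 stage, had 199, 109.8, 187, 109 and 150.5 CPM at DN2/3 and 88.5, 56.3, 220.2, 62.0 and 139 CPM at DN4 (log2 fold -0.56, SE 0.20, adjusted p = 0.0856) and did not pass, falling in 4 pairs and not in pair 3. Cd69, Cd24a and Thy1 also did not pass (log2 folds 1.05, -0.27 and 0.22, adjusted p = 0.0534, 0.0504 and 0.277).

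Among genes of the double-positive stage CD8 and CD4 rose. Of 12 measured, 7 rose and 3 fell (median log2 fold 0.93, against -0.02 over all genes). Of all genes 8.21% rose and 9.95% fell. Leaving out each pair gave 7 rises, with 2, 1, 3, 2 and 1 falls for pairs 1 to 5, and without the replicate block 6 rose and 0 fell. Cd8a, the CD8 alpha chain (mm10 chromosome 6, 71373427 to 71379173), had 45.3, 92.7, 27.6, 39.6 and 25.6 CPM at DN2/3 and 742, 345, 217, 252 and 161 CPM at DN4 (log2 fold 2.85, SE 0.28, adjusted p = 0.00115). Cd8b1, the beta chain beside it on the chromosome, had 19.9, 44.2, 15.9, 19.2 and 17.5 CPM at DN2/3 and 338, 149, 98.3, 121 and 107 CPM at DN4 (log2 fold 2.74, SE 0.30, adjusted p = 0.00172). Both were without overlap, with DN4 replicate 1 highest and replicate 4 in the middle of the order. Cd4 had 4.09, 8.17, 3.12, 2.33 and 3.25 CPM at DN2/3 and 422, 45.5, 54.0, 13.4 and 27.8 CPM at DN4 (log2 fold 3.74, SE 0.63, adjusted p = 0.00796). All DN4 libraries were above all DN2/3 libraries, but DN4 replicate 1 held more than the other DN4 libraries together. The chemokine receptor gene Ccr9 had 52.99, 98.5, 10.01, 26.6 and 52.5 CPM at DN2/3 and 592, 297, 109.8, 55.1 and 256 CPM at DN4 (log2 fold 2.38, SE 0.38, adjusted p = 0.00671), with overlapping groups. The ubiquitin ligase subunit gene Rmnd5a and the HMG box factor gene Tox rose by 0.71 and 1.15 (adjusted p = 0.00426 and 0.00759), both without overlap. Aqp11, Arpp21 and Cd1d1, which are known to be high in double-positive cells, fell, with log2 folds of -0.60, -0.48 and -0.38 (adjusted p = 0.00657, 0.0152 and 0.0294). Calls lost on leaving out a pair were Arpp21 without pair 2 or 5 (adjusted p = 0.0515 to 0.0525) and Cd1d1 without pair 1, 2, 4 or 5 (adjusted p = 0.054 to 0.112).

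**Figure D2:**
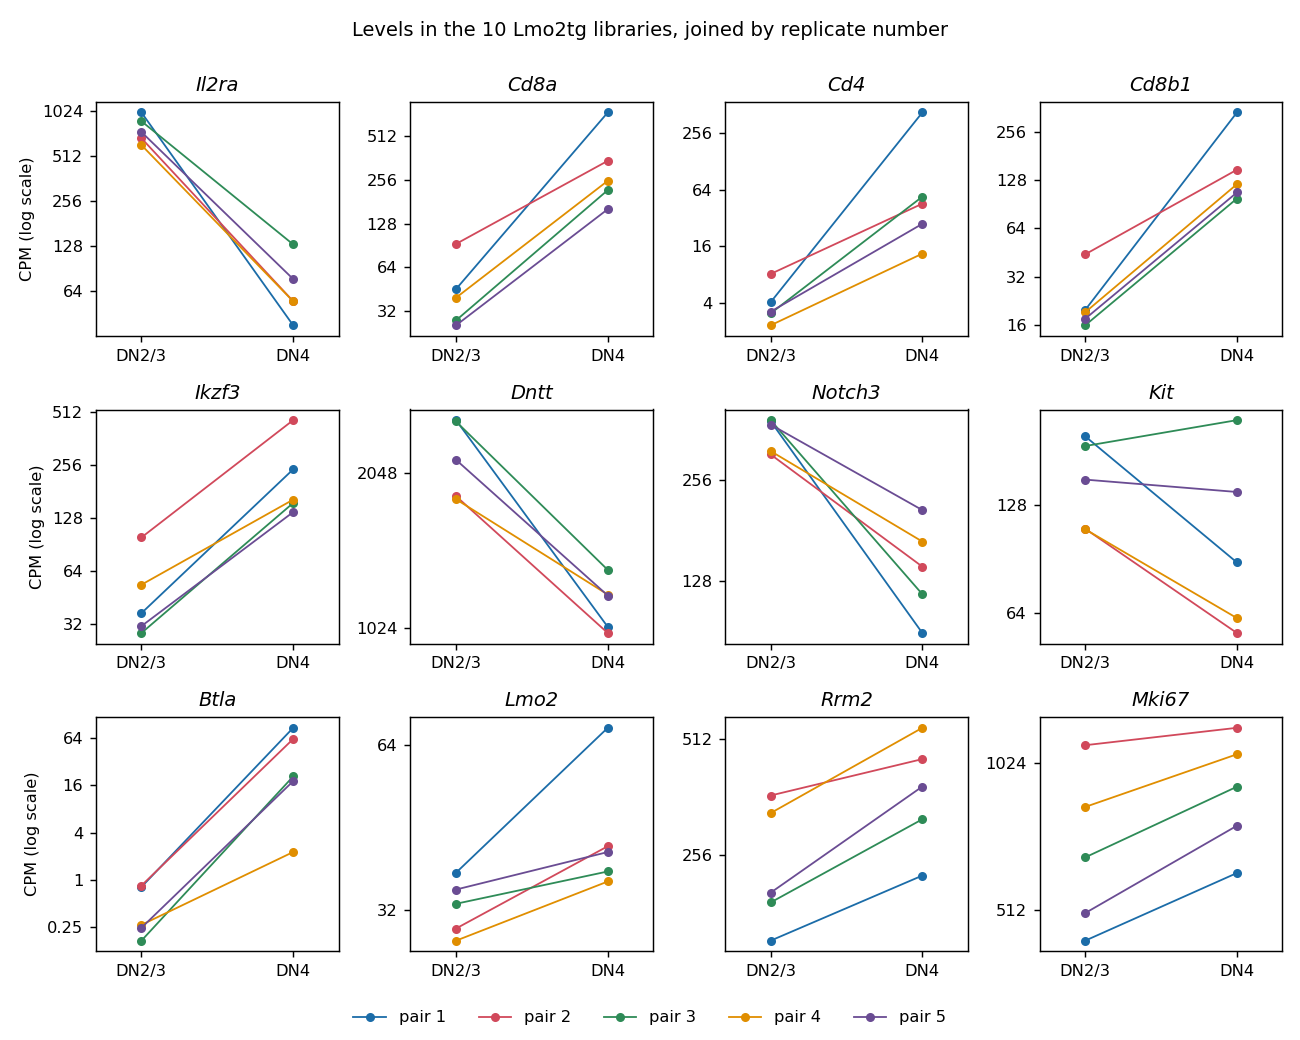
Levels (CPM, log scale) of 12 genes in the 5 DN2/3 and 5 DN4 libraries of Lmo2tg, with a line joining the libraries of each replicate pair in one color. Il2ra, Dntt and Notch3 go down in all 5 pairs, Cd8a, Cd8b1 and Ikzf3 go up in all 5, Kit goes down in 4 of 5, and the Btla line of pair 4 ends at 2.25 CPM while the other 4 end between 18.2 and 87.6.

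Genes of the pre-T-cell receptor and its nearest signalling partners were mostly level. Of 14, 2 rose and 1 fell, against 8.21% and 9.95% of all genes, with a median log2 fold of 0.03. A fit of edgeR without the replicate block called 0, with 3 at an unadjusted p under 0.05, while DESeq2 and limma-voom with the block called 3 each. One of the rises was that of Cd6, which encodes a surface receptor (log2 fold 0.66, SE 0.18, adjusted p = 0.0378), and the adaptor gene Lat fell (log2 fold -0.39, SE 0.11, adjusted p = 0.047). Single pairs ended the calls of Cd6 without pair 1, 2, 3 or 5 (adjusted p = 0.0765 to 0.11) and Lat without pair 1, 2, 3 or 5 (adjusted p = 0.0698 to 0.121). Ptcra, the invariant pre-T-cell receptor chain, had 25.0, 44.8, 35.8, 22.2 and 30.9 CPM at DN2/3 and 12.5, 34.8, 13.8, 38.4 and 30.2 CPM at DN4 (log2 fold -0.39, SE 0.28, adjusted p = 0.331) and did not pass. It fell in 4 pairs and was higher at DN4 in pair 4. Lck, the receptor's first kinase, was lower in each DN4 library than in each DN2/3 library by a small step (log2 fold -0.20, SE 0.11, adjusted p = 0.204) that did not pass. The other 9 members that did not pass had log2 folds between -0.31 (Trat1) and 0.26 (Zap70).

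Among 10 genes of V(D)J recombination, which assembles the receptor genes, the recombinase gene Rag1 rose and the terminal transferase gene Dntt fell, while the end-joining genes did not pass (log2 folds between -0.28 for Xrcc6 and 0.22 for Xrcc4). Over all genes 8.21% rose and 9.95% fell. Rag1 had 511, 288, 342, 152 and 257 CPM at DN2/3 and 1129, 502, 497, 341 and 346 CPM at DN4, with overlapping groups and a rise in each pair (log2 fold 0.82, SE 0.13, adjusted p = 0.00665). Dntt, which adds nucleotides at the joints, had 2589.9, 1845, 2574, 1820.0 and 2169.9 CPM at DN2/3 and 1029.9, 1002, 1328, 1189.6 and 1184 CPM at DN4, without overlap (log2 fold -0.92, SE 0.10, adjusted p = 0.00203). Rag2 lies next to Rag1 and acts with it, and it had 23.5, 17.6, 18.8, 8.14 and 10.7 CPM at DN2/3 and 41.2, 18.9, 18.4, 9.17 and 14.1 CPM at DN4 (log2 fold 0.30, SE 0.14, adjusted p = 0.167), a change that did not pass. Both calls held without any single pair.

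More Notch pathway genes fell than rose. Of 12 measured, 6 fell and 1, Trib2, rose, against 9.95% and 8.21% of all genes, and the median log2 fold was -0.68. Leaving out pairs 1 to 5 in turn gave 6, 5, 5, 7 and 6 falls, and without the replicate block 1 fell and 0 rose. The receptor gene Notch3 (mm10 chromosome 17, 32120820 to 32166852) had 382, 304, 385, 312 and 374 CPM at DN2/3 and 89.4, 141, 117, 167 and 208 CPM at DN4, without overlap (log2 fold -1.32, SE 0.18, adjusted p = 0.00385). Notch1, the receptor that commits cells to the T lineage, had 1681, 1494, 1408, 1692 and 1702 CPM at DN2/3 and 563, 1009.7, 619, 1297 and 1052 CPM at DN4 (log2 fold -0.87, SE 0.16, adjusted p = 0.012), also without overlap. The target gene Hes1, a basic helix-loop-helix repressor, had 62.8, 213, 69.5, 142 and 49.4 CPM at DN2/3 and 10.2, 83.7, 28.6, 50.9 and 28.7 CPM at DN4 (log2 fold -1.49, SE 0.22, adjusted p = 0.00516), with overlapping groups and a fall in each pair. Heyl, a repressor of the same family, had 14.8, 9.41, 13.2, 10.5 and 7.92 CPM at DN2/3 and 8.67, 4.42, 5.30, 5.86 and 3.77 CPM at DN4 (log2 fold -1.01, SE 0.14, adjusted p = 0.00356). The feedback inhibitor gene Nrarp had 6.99, 19.5, 10.4, 20.4 and 6.62 CPM at DN2/3 and 3.31, 12.5, 5.01, 12.4 and 4.80 CPM at DN4 (log2 fold -0.78, SE 0.13, adjusted p = 0.00765). The ubiquitin ligase gene Dtx1 fell by less (log2 fold -0.57, SE 0.12, adjusted p = 0.0197). Trib2, a pseudokinase gene, had 137, 88.9, 82.6, 68.1 and 77.5 CPM at DN2/3 and 208, 116, 197, 74.4 and 129 CPM at DN4 (log2 fold 0.63, SE 0.15, adjusted p = 0.0264). The calls that did not outlast every left-out pair were Dtx1 without pair 2 or 3 (adjusted p = 0.0546 to 0.0562) and Trib2 without pair 1, 2 or 5 (adjusted p = 0.053 to 0.083). Hey1, Hes5, Notch2 and the nuclear partners Rbpj and Maml1 did not pass (log2 folds between -0.93 and 0.23).

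To set the Notch and replication genes beside their start sites, the RefSeq promoter windows of GRCm38.p6 (250 bases before to 50 after the start) were searched on both strands for the letters GTGGGAA, a core of the motif bound by the Notch partner RBPJ, and for TTTCCCGC and TTTGGCGC, forms of the E2F motif. Windows were matched for 5 of the 7 called Notch genes (Notch3, Nrarp, Notch1, Dtx1 and Trib2) and for Rrm2. None of these 6 windows held any of the letters, which are present in 6.38%, 1.07% and 0.514% of all 32851 windows. At such shares, 6 windows without a match cannot show that these genes differ from others. Hes1 and Heyl had no matched window and were not searched. The windows of Notch3, the called Notch gene with the smallest adjusted p among those matched, and of Rrm2, the only DNA replication gene that passed, are shown in the direction of transcription and in lower case throughout, since no motif was there to mark.
Notch3, chr17:32166841-32167140, minus strand: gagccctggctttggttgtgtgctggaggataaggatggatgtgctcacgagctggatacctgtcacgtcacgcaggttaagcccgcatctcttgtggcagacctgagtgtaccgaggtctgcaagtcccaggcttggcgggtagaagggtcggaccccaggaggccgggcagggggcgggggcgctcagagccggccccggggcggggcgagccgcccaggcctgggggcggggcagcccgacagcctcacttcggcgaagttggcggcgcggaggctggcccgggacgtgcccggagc
Rrm2, chr12:24708004-24708303, plus strand: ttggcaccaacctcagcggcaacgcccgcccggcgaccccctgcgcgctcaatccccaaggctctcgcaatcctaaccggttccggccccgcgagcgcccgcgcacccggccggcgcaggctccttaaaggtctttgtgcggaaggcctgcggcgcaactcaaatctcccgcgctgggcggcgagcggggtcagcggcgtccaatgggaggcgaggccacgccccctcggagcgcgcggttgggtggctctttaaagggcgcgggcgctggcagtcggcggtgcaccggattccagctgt

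Transcription factors of the T lineage included more rises than falls: 11 and 3 of 25 tested, against 8.21% and 9.95% of all genes, with a median log2 fold of 0.51. In the fit without the replicate block 7 rose and 0 fell. Ikzf3, which encodes the Ikaros family factor Aiolos, had 36.7, 98.9, 28.3, 53.3 and 31.0 CPM at DN2/3 and 242, 460.0, 155, 162 and 138 CPM at DN4, without overlap (log2 fold 2.24, SE 0.16, adjusted p = 0.000681). The chromatin organizer gene Satb1 had 426, 551, 389.7, 457 and 408 CPM at DN2/3 and 1672, 1128, 751, 910.0 and 718 CPM at DN4, without overlap (log2 fold 1.16, SE 0.17, adjusted p = 0.00523). Id3, an inhibitor of E proteins induced by receptor signals, had 11.1, 26.4, 23.1, 27.7 and 16.1 CPM at DN2/3 and 122, 81.8, 44.5, 64.5 and 70.1 CPM at DN4, without overlap (log2 fold 1.86, SE 0.34, adjusted p = 0.0103). Ets2 rose without overlap (log2 fold 1.16, SE 0.24, adjusted p = 0.0164). Ets1 and Ikzf1 rose by 0.51 and 0.50 (adjusted p = 0.0192 and 0.0148). Egr2, a relative of Egr3 with the same inducers, had 1.51, 3.08, 1.44, 5.78 and 2.05 CPM at DN2/3 and 41.5, 26.0, 8.64, 3.69 and 10.6 CPM at DN4 (log2 fold 2.54, SE 0.69, adjusted p = 0.039), and in pair 4 it was lower at DN4. The falls were in Runx1 (log2 fold -0.62, SE 0.11, adjusted p = 0.00984) and in the E protein genes Tcf3 and Tcf4 (log2 folds -0.50 and -0.47, adjusted p = 0.0449 and 0.0199). Tcf7, which encodes TCF1, had 2929, 3025, 2753, 2498 and 2571 CPM at DN2/3 and 2758, 3121, 3116, 3345 and 2948 CPM at DN4 (log2 fold 0.16, SE 0.09, adjusted p = 0.241). With Gata3, Bcl11b, Lef1, Tcf12, Runx3, Myb, Id1, Id2, Egr1 and Nfatc1 it did not pass. Spi1, the myeloid and early progenitor factor PU.1, was too low to test, at most 1.19 CPM. Calls lost on leaving out a pair were Ets1 without pair 2 or 5 (adjusted p = 0.0576 to 0.0624), Ikzf1 without pair 5 (adjusted p = 0.0537), Egr2 without pair 1, 2, 3 or 5 (adjusted p = 0.0822 to 0.115), Tcf3 without pair 1, 2, 3 or 5 (adjusted p = 0.0817 to 0.132) and Tcf4 without pair 1, 2 or 5 (adjusted p = 0.0674 to 0.0773).

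Of 15 immediate early genes, which respond within a short time to signals and to cell handling, 4 rose and 1 fell, against 8.21% and 9.95% of all genes. Nr4a1, induced by receptor signals, had 38.0, 184, 31.5, 125 and 38.6 CPM at DN2/3 and 347, 642, 157, 167 and 146 CPM at DN4 (log2 fold 1.95, SE 0.35, adjusted p = 0.00948), with overlapping groups. Jun had 237, 279, 359, 455 and 385 CPM at DN2/3 and 123, 257, 187, 316 and 234 CPM at DN4 (log2 fold -0.64, SE 0.12, adjusted p = 0.0129). Leaving out pairs 1 to 5 gave 2, 2, 2, 8 and 2 rises, and leaving out the replicate block gave 1. The labels give no time from tissue to lysis, and the part of cell handling in these values was not tested.

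Of 13 tested genes that act with Lmo2 and Ldb1, 2 rose and 4 fell, against 8.21% and 9.95% of all genes (median log2 fold -0.50). In the fit without the replicate block 0 rose and 1 fell, and without pairs 1 to 5 in turn 0, 0, 1, 1 and 0 rose and 3, 3, 4, 5 and 4 fell. Lmo2 itself was higher in DN4 in each pair, with the DN4 level of replicate 1 above the others (log2 fold 0.44, SE 0.12, adjusted p = 0.0389). The LIM-only relative Lmo4 rose (log2 fold 0.48, SE 0.11, adjusted p = 0.024). Lyl1, the basic helix-loop-helix partner, had 101, 36.4, 92.3, 44.9 and 88.2 CPM at DN2/3 and 33.2, 11.2, 61.9, 16.5 and 72.6 CPM at DN4 (log2 fold -1.11, SE 0.22, adjusted p = 0.0138). Nfe2, a subunit of an erythroid and megakaryocyte leucine zipper factor, had 174, 57.4, 223, 96.1 and 205 CPM at DN2/3 and 51.4, 17.2, 183, 36.7 and 151 CPM at DN4 (log2 fold -1.11, SE 0.24, adjusted p = 0.0182). The repressor gene Cbfa2t3 had 218, 131, 192, 194 and 234 CPM at DN2/3 and 84.9, 69.1, 158, 119 and 161 CPM at DN4 (log2 fold -0.75, SE 0.14, adjusted p = 0.0118). In these 3 genes the groups overlapped, and replicates 3 and 5 kept the highest DN4 levels. Ssbp3, which protects Ldb1 from degradation, fell without overlap (log2 fold -0.50, SE 0.09, adjusted p = 0.0115). Hhex, a homeobox gene, had 67.3, 54.9, 89.6, 57.3 and 66.9 CPM at DN2/3 and 41.5, 18.8, 153, 28.0 and 87.0 CPM at DN4 (log2 fold -0.42, SE 0.32, adjusted p = 0.376), lower in pairs 1, 2 and 4 and higher in pairs 3 and 5. Ldb1 did not pass (log2 fold -0.21, SE 0.11, adjusted p = 0.192). Tal1 had at most 0.375 CPM, and Lmo1, Gata2, Ldb2 and Runx1t1 were too low to test, the last pair with no count in the 10 libraries. The calls that did not outlast every left-out pair were Lmo2 without pair 1, 2, 3, 4 or 5 (adjusted p = 0.0501 to 0.104), Lmo4 without pair 1, 2 or 5 (adjusted p = 0.054 to 0.0647) and Nfe2 without pair 1 or 2 (adjusted p = 0.0526 to 0.0579).

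Of 13 stem and progenitor regulators tested, 1 rose (Lmo2) and 4 fell, against 8.21% and 9.95% of all genes. A fit of edgeR without the replicate block called 0, with 4 at an unadjusted p under 0.05, while DESeq2 and limma-voom with the block called 7 and 6. Besides Lyl1, the falls were those of Mycn, with 9.93, 15.6, 13.6, 15.8 and 10.1 CPM at DN2/3 and 4.13, 6.74, 8.77, 7.40 and 8.11 CPM at DN4 and no overlap (log2 fold -0.90, SE 0.17, adjusted p = 0.0109), Gfi1 and Erg. The repressor gene Gfi1 had 229.7, 159, 199, 202 and 218 CPM at DN2/3 and 140.0, 134, 121, 147 and 158 CPM at DN4, without overlap (log2 fold -0.51, SE 0.09, adjusted p = 0.00891). Erg, an Ets factor gene, had 84.9, 31.4, 81.9, 48.1 and 72.4 CPM at DN2/3 and 19.9, 6.82, 94.1, 12.9 and 44.4 CPM at DN4 (log2 fold -1.34, SE 0.35, adjusted p = 0.0356). It fell in 4 pairs and was higher in pair 3, and single pairs ended the call of Erg without pair 1, 2, 4 or 5 (adjusted p = 0.0605 to 0.103). Another 12 listed members were below the count filter. As a marker of the same libraries, the mast cell and progenitor protease gene Cpa3 had 767, 378, 863, 462 and 745 CPM at DN2/3 and 497, 136, 1577, 198 and 887 CPM at DN4 (log2 fold -0.44, SE 0.33, adjusted p = 0.361) and was highest in DN4 replicate 3, as were Hhex and Erg.

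Median changes of cell cycle genes between the stages of Lmo2tg were small. Of 22 DNA replication genes only Rrm2 passed, a rise of 4.55% of the list, against 8.21% of all genes. Rrm2, a subunit of the enzyme that makes deoxynucleotides, had 154, 366, 193, 329 and 205 CPM at DN2/3 and 227, 455, 317, 548 and 386 CPM at DN4, with overlapping groups and a rise in each pair (log2 fold 0.66, SE 0.10, adjusted p = 0.00527). The median log2 fold of the 22 was 0.06, but the pairs did not move together. Their summed level was 4015, 8132, 5418, 7863 and 4455 CPM at DN2/3 and 3360, 7984, 5009, 9928 and 5486 CPM at DN4. It fell in pairs 1 to 3 and rose in pairs 4 and 5. Of 22 mitosis genes 9 rose (40.9%, against 8.21% of all genes), with a median of 0.25, among them Cenpe, Bub1 and Mki67. Mki67, the source of the Ki-67 antigen, had 443, 1111, 655, 831 and 504 CPM at DN2/3 and 609, 1206, 914, 1064 and 760.4 CPM at DN4 (log2 fold 0.41, SE 0.09, adjusted p = 0.021), a small rise in each pair over levels that differed more between replicates. Cenpe and Bub1, which act at the kinetochore, rose by 0.51 and 0.58 (adjusted p = 0.0125 and 0.0162). Leaving out 1 pair was enough to end the calls of Cenpe without pair 5 (adjusted p = 0.0517), Bub1 without pair 5 (adjusted p = 0.0625) and Mki67 without pair 1 or 5 (adjusted p = 0.0703 to 0.0901). The count of mitosis genes rested on the pairs used: 2, 10, 3 and 7 rose without pairs 1 to 4, and without pair 5 edgeR called 0, with 9 at an unadjusted p under 0.05. Without the replicate block edgeR also called 0 mitosis genes, with 0 at an unadjusted p under 0.05, while DESeq2 and limma-voom with the block called 10 and 9.

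Among 12 G1 cyclins, kinases and E2F genes, Ccne1 and Ccne2, the cyclins of S-phase entry, rose and Cdk6, a partner of D cyclins, fell. Over all genes 8.21% rose and 9.95% fell. Ccne1 had 15.3, 32.4, 17.5, 33.1 and 22.1 CPM at DN2/3 and 22.3, 40.9, 28.3, 58.2 and 40.2 CPM at DN4 (log2 fold 0.66, SE 0.10, adjusted p = 0.00596). Ccne2 rose by about as much (log2 fold 0.61, SE 0.11, adjusted p = 0.0107). Cdk6 had 181, 133, 191, 134 and 200.1 CPM at DN2/3 and 55.7, 69.8, 134, 68.2 and 135 CPM at DN4 (log2 fold -0.93, SE 0.16, adjusted p = 0.00867). All of these groups overlapped and all 5 pairs moved alike. Of 14 cell cycle inhibitors 5 rose, and 2, 2, 2, 6 and 2 without pairs 1 to 5 in turn and 1 without the replicate block. Rb1, the retinoblastoma protein gene, had 58.9, 75.0, 55.9, 48.2 and 51.4 CPM at DN2/3 and 135, 117, 155, 76.6 and 94.3 CPM at DN4, without overlap (log2 fold 0.98, SE 0.14, adjusted p = 0.00402). Its relative Rbl2 rose by 0.54 (adjusted p = 0.0294). Cdkn1c, the Cdk inhibitor p57, was low and also rose without overlap (log2 fold 0.95, SE 0.18, adjusted p = 0.0131). Single pairs ended the call of Rbl2 without pair 1, 2, 3 or 5 (adjusted p = 0.0626 to 0.0872).

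Most growth and metabolic lists had few calls, to set beside 8.21% higher and 9.95% lower over all genes. Of 21 Myc and ribosome biogenesis genes only Mycn passed, a fall of 4.76% of the list (median log2 fold -0.10). Of 16 glycolysis genes 2 rose and 2 fell, against 8.21% and 9.95% of all genes. Without the replicate block edgeR called 0 glycolysis genes, with 3 at an unadjusted p under 0.05, while DESeq2 and limma-voom with the block called 5 and 4. Hk1, the first enzyme of the pathway, had 229, 185, 312, 236 and 275 CPM at DN2/3 and 147, 131, 189, 165 and 218 CPM at DN4 (log2 fold -0.53, SE 0.08, adjusted p = 0.00512). The phosphofructokinase gene Pfkp rose (log2 fold 0.49, SE 0.09, adjusted p = 0.011) and the low Aldoc fell (log2 fold -1.20, SE 0.21, adjusted p = 0.00931). Of 9 nutrient uptake genes edgeR called 0, with 6 at an unadjusted p under 0.05, while DESeq2 called 2 and limma-voom 0. The amino acid transporter gene Slc38a2, the highest of them, had 389, 747, 641, 771 and 454 CPM at DN2/3 and 451, 882, 813, 787 and 518 CPM at DN4 (log2 fold 0.21, SE 0.08, adjusted p = 0.0947). Of 19 canonical histone genes edgeR, DESeq2 and limma-voom each called 0, with 0 at an unadjusted p under 0.05 in edgeR. Hist1h1c, the linker histone gene with the highest level, had 6.14, 16.6, 8.08, 10.2 and 5.30 CPM at DN2/3 and 7.45, 13.6, 6.01, 6.65 and 7.23 CPM at DN4 (log2 fold -0.12, SE 0.18, adjusted p = 0.667), and reads of such near-identical genes are uncertain. Cholesterol synthesis genes moved one way: 8 of 18 fell, against 9.95% of all genes, with a median log2 fold of -0.35. Msmo1 and Nsdhl, enzymes of the pathway, fell with log2 folds of -0.38 and -0.37 (adjusted p = 0.0249 and 0.0267). Most of these calls sat at the threshold, since 1, 1, 1, 12 and 1 of the 18 were called without pairs 1 to 5. A fit of edgeR without the replicate block called 0, with 5 at an unadjusted p under 0.05, while DESeq2 and limma-voom with the block called 11 and 9. Calls lost on leaving out a pair were Msmo1 without pair 1, 2, 3 or 5 (adjusted p = 0.0506 to 0.0856) and Nsdhl without pair 1, 2, 3 or 5 (adjusted p = 0.053 to 0.0882).

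Of 22 cytokine receptor genes 7 rose and 3 fell, against 8.21% and 9.95% of all genes. In the fit without the replicate block 1 rose and 0 fell. Il2rb, the beta chain shared by the receptors for interleukins 2 and 15, had 3.53, 1.18, 0.975, 1.25 and 1.50 CPM at DN2/3 and 151, 58.0, 29.9, 4.69 and 31.3 CPM at DN4, without overlap (log2 fold 4.68, SE 0.50, adjusted p = 0.00147), the opposite of its partner chain Il2ra. Il18r1 had 1.44, 0.317, 0.0687, 0.0656 and 0.181 CPM at DN2/3 and 14.2, 2.94, 3.90, 0.718 and 1.88 CPM at DN4 (log2 fold 3.76, SE 0.39, adjusted p = 0.0014). Il21r had 62.4, 27.0, 40.6, 29.6 and 48.8 CPM at DN2/3 and 136, 77.1, 74.0, 43.8 and 97.6 CPM at DN4 (log2 fold 1.02, SE 0.13, adjusted p = 0.00295). Il7r, the receptor on which DN2 and DN3 cells depend, had 271, 131, 263, 139 and 173 CPM at DN2/3 and 196, 48.3, 175, 56.8 and 63.2 CPM at DN4 (log2 fold -1.04, SE 0.17, adjusted p = 0.0081), with a fall in each pair. In the Jak-Stat list of 14, 2 rose and 4 fell, and 1 and 1 without the block. Bcl6, a repressor, had 5.29, 6.33, 6.41, 4.60 and 11.4 CPM at DN2/3 and 81.2, 58.3, 35.8, 13.1 and 35.5 CPM at DN4, without overlap (log2 fold 2.58, SE 0.36, adjusted p = 0.00415). Stat5a, the signal carrier of the interleukin-7 receptor, had 643, 488, 679.7, 642 and 708 CPM at DN2/3 and 366, 379, 415, 539.7 and 501 CPM at DN4 (log2 fold -0.52, SE 0.10, adjusted p = 0.0115).

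Calls among survival genes were few, while 8.21% of all genes rose and 9.95% fell. In the Bcl2 family 7.69% of those tested fell, a share near that of all genes. Of 13 tested members of the Bcl2 family only Bcl2l2, a survival gene, passed, with 9.03, 10.7, 11.8, 15.03 and 22.5 CPM at DN2/3 and 4.34, 6.42, 9.13, 7.95 and 8.90 CPM at DN4 (log2 fold -0.87, SE 0.16, adjusted p = 0.00953). Of 15 p53 targets the death receptor gene Fas rose, with 3.15, 4.80, 5.81, 3.41 and 3.13 CPM at DN2/3 and 32.1, 13.1, 20.2, 5.89 and 7.77 CPM at DN4 and no overlap (log2 fold 1.75, SE 0.34, adjusted p = 0.0138). Perp also rose (log2 fold 1.35, SE 0.32, adjusted p = 0.0267). Single pairs ended the calls of Fas without pair 3 (adjusted p = 0.0552) and Perp without pair 1, 2, 3 or 5 (adjusted p = 0.0701 to 0.0873). Of 12 homing and egress genes 7 rose, against 8.21% of all genes (median log2 fold 0.99), and 2 did without the replicate block. Ccr4, a chemokine receptor that leads selected thymocytes to the medulla, had 1.84, 3.53, 1.29, 2.99 and 1.53 CPM at DN2/3 and 56.4, 28.3, 19.8, 9.64 and 20.3 CPM at DN4, without overlap (log2 fold 3.49, SE 0.43, adjusted p = 0.00267). The integrin gene Itgae rose by 1.81 (adjusted p = 0.00988). Leaving out pairs 1 to 5 gave 5, 6, 4, 6 and 3 rises. Of 21 interferon response genes Ifit2 rose (log2 fold 0.72, SE 0.21, adjusted p = 0.0489) and Bst2 fell (log2 fold -0.72, SE 0.19, adjusted p = 0.0347) (median 0.08). Single pairs ended the calls of Ifit2 without pair 1, 2, 3 or 5 (adjusted p = 0.0627 to 0.126) and Bst2 without pair 1, 2, 3 or 5 (adjusted p = 0.0659 to 0.103), and the log2 fold of Ifit2 was 0.46 without pair 1.

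Markers of other cell types that a sort could hold moved with the stage in part. The shares over all genes, to set beside each list here, were 8.21% higher and 9.95% lower. Of 8 tested B cell and antigen presentation markers 4 rose, and 2 without the replicate block. Cd74, the MHC class II invariant chain, had 2.22, 1.80, 0.412, 0.591 and 1.29 CPM at DN2/3 and 104, 16.7, 25.1, 6.10 and 43.0 CPM at DN4, without overlap (log2 fold 4.71, SE 0.45, adjusted p = 0.00112). Cd22 rose as well (log2 fold 4.27, SE 0.78, adjusted p = 0.0103). Summed over the 12 markers, the level was 17.1 to 32.7 CPM in DN2/3 libraries and 28.8 to 219 CPM in DN4 libraries, the highest again in replicate 1, in which Cd4, Zbtb7b and H2-Aa were also highest. Of 9 mature T cell markers 4 rose and 2 fell, and 2 and 0 without the block. Il7r was among the falls (log2 fold -1.04). Icos, a costimulatory receptor gene, had 1.32, 2.12, 0.824, 1.35 and 1.20 CPM at DN2/3 and 43.0, 31.8, 9.13, 2.20 and 11.7 CPM at DN4 (log2 fold 3.43, SE 0.55, adjusted p = 0.00653). Ccr7, the receptor that leads cells to the medulla, had 2.42, 2.13, 3.41, 2.23 and 2.65 CPM at DN2/3 and 61.7, 7.17, 13.3, 4.55 and 20.9 CPM at DN4 (log2 fold 2.48, SE 0.49, adjusted p = 0.0144). Of 7 NK and innate lymphoid markers 4 rose and 1 fell, and 2 and 0 without the block. Zbtb16, which encodes PLZF, had 0.0263, 0.548, 0.0824, 0.0656 and 0.0602 CPM at DN2/3 and 1.16, 7.89, 2.89, 0.742 and 5.65 CPM at DN4, without overlap (log2 fold 4.74, SE 0.42, adjusted p = 0.000922). Rora rose by 1.14 and Prf1 by 3.59 (adjusted p = 0.0119 and 0.0126). Of 6 gamma-delta T markers 4 rose, among them Zbtb16, which is in both lists, and Maf (log2 fold 2.37, SE 0.57, adjusted p = 0.0266). Leaving out 1 pair was enough to end the calls of Ccr7 without pair 5 (adjusted p = 0.051), Prf1 without pair 1 (below the count filter) and Maf without pair 1, 3 or 5 (adjusted p = 0.0634 to 0.0907). The part of such cells in the stage change was not tested.

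The other marker lists were low, fell or moved in both directions, while 8.21% of all genes rose and 9.95% fell. Of 5 dendritic cell markers tested, Ccr7 rose and Bst2 fell, both of which T cells also express. Of 6 tested myeloid markers 3 fell: Csf1r (log2 fold -3.05, SE 0.69, adjusted p = 0.0219), Adgre1 (log2 fold -2.29, SE 0.63, adjusted p = 0.0403) and Lyz2 (log2 fold -2.32, SE 0.65, adjusted p = 0.0434). The summed level of the 13 markers was 16.0 to 24.8 CPM at DN2/3 and 11.5 to 19.0 CPM at DN4. Elane had no count. Among mast cell and basophil markers, Cpa3 made up nearly all of the sum and 6 of 10 had no count in the 10 libraries (Mcpt4, Tpsb2, Tpsab1, Cma1, Fcer1a and Ms4a2). The adult globin symbols Hbb-bs, Hbb-bt, Hba-a1 and Hba-a2 had no count either. Of 4 erythroid markers tested only Alas2 rose, and the other 3 had negative log2 folds that did not pass (median of the list -0.43). Alas2, the first enzyme of heme synthesis in red cell precursors, had 1.08, 1.11, 0.824, 0.525 and 0.933 CPM at DN2/3 and 7.93, 14.1, 15.2, 3.52 and 18.9 CPM at DN4, without overlap (log2 fold 3.61, SE 0.27, adjusted p = 0.000681). Of the stroma markers the adhesion molecule genes Epcam and Pecam1, which thymocytes also express, fell with log2 folds of -0.84 and -0.34 (adjusted p = 0.0272 and 0.0326). The calls that did not outlast every left-out pair were Csf1r without pair 2, 3 or 5 (adjusted p = 0.071 to 0.0761) and without pair 1 (below the count filter), Adgre1 without pair 5 (adjusted p = 0.118) and without pair 1 or 2 (below the count filter), Lyz2 without pair 2, 3, 4 or 5 (adjusted p = 0.0775 to 0.127), Epcam without pair 1 or 5 (adjusted p = 0.0619 to 0.0771) and Pecam1 without pair 1, 2, 4 or 5 (adjusted p = 0.0588 to 0.109).

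The same step in wild-type mice changed more genes, and the difference between genotypes was tested as an interaction in 1 model of all 28 libraries. In that model, whose estimate of the spread includes the wild-type libraries, 5569 of 14371 genes changed with stage in Lmo2tg (38.8%, with 18.6% higher and 20.1% lower). In wild type 8922 changed (62.1%, with 28.6% higher and 33.5% lower). The stage change differed between them in 7106 genes (49.4%), more positive in Lmo2tg in 3704 (25.8%) and more negative in 3402 (23.7%). Of these 7106, 2950 moved the same way by less in Lmo2tg, 317 the same way by more, and 3839 had fitted changes of opposite sign. In 680 of the 3839 both stage changes were called, with 389 higher and 291 lower at DN4 in Lmo2tg. Without the replicate block 3684 differed. Rises were shared by 1301 genes, 31.7% of those in wild type and 48.7% of those in Lmo2tg, and falls by 1727 genes, 35.8% and 59.7%. Wild-type libraries are named after another scheme, so a difference between library series and one between genotypes cannot be told apart.

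**Figure D3:**
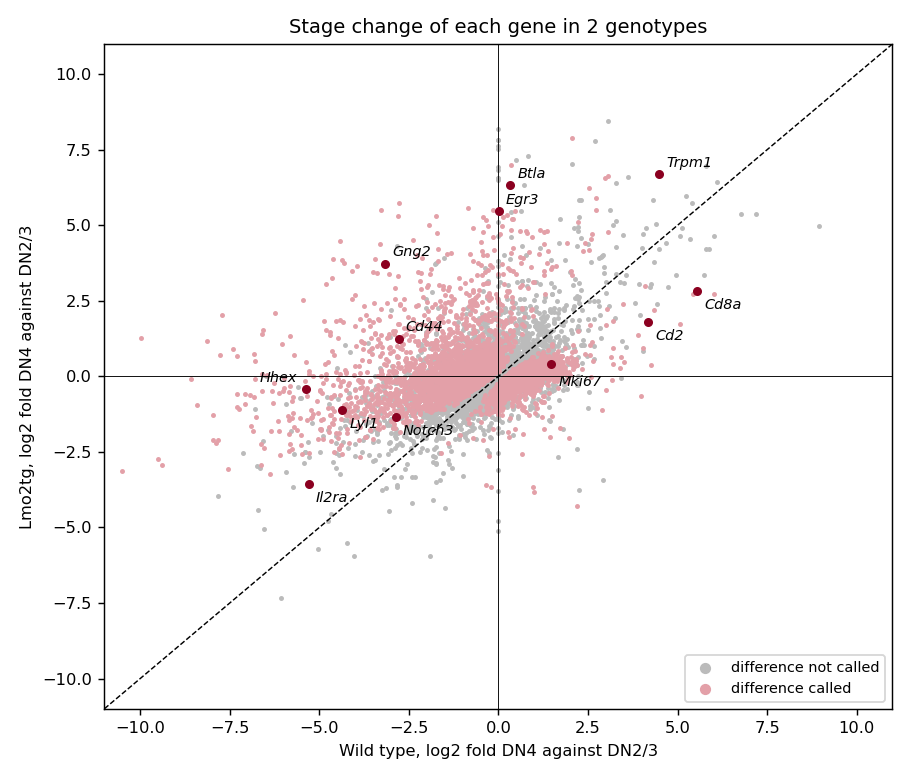
Log2 fold of DN4 against DN2/3 in wild type (horizontal) and in Lmo2tg (vertical) for 14371 genes in the model of all libraries, with genes whose stage change differed in red and the line of equal change dashed. Il2ra, Cd8a and Cd2 lie between the horizontal axis and the dashed line, Btla and Egr3 lie near 0 on the wild-type axis, and Gng2 and Cd44 have opposite signs.

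CD25, CD8, Cd2 and Kit changed the same way in both genotypes and by less in Lmo2tg, while Cd44 and Cd69 rose in Lmo2tg and fell in wild type in that model. The log2 fold of Il2ra was -3.56 in Lmo2tg and -5.30 in wild type (difference 1.74, adjusted p = 0.00155). That of Cd8a was 2.84 in Lmo2tg and 5.56 in wild type (difference -2.72, adjusted p = 0.000588). Cd8b1 was at 2.74 in Lmo2tg and 5.44 in wild type (difference -2.70, adjusted p = 6.37e-05). Cd2 was at 1.80 in Lmo2tg and 4.18 in wild type (difference -2.38, adjusted p = 1.05e-05). Kit went with them, at -0.57 in Lmo2tg and -1.92 in wild type (difference 1.35, adjusted p = 0.000628). Cd4 did not differ past the threshold, at 3.79 in Lmo2tg and 2.60 in wild type (difference 1.19, adjusted p = 0.264). Cd44, an adhesion receptor of the earliest thymocytes, was at 1.25 in Lmo2tg and -2.79 in wild type (difference 4.04, adjusted p = 3.01e-06). Cd69, an early activation antigen, was at 1.05 in Lmo2tg and -1.11 in wild type (difference 2.16, adjusted p = 0.000231). Among Notch genes, 7 of 12 were more positive and 2 more negative in Lmo2tg than in wild type, against 25.8% and 23.7% of all genes, and 4 and 0 were without the replicate block. Notch3 was at -1.33 in Lmo2tg and -2.87 in wild type (difference 1.53, adjusted p = 0.000169). Hes1 was at -1.49 in Lmo2tg and -2.93 in wild type (difference 1.44, adjusted p = 0.00132), not called without the replicate block (adjusted p = 0.0564). Dtx1 was at -0.58 in Lmo2tg and -2.79 in wild type (difference 2.22, adjusted p = 2.37e-06). Notch1 did not differ past the threshold, at -0.88 in Lmo2tg and -1.12 in wild type (difference 0.24, adjusted p = 0.36).

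Replication and mitosis genes rose throughout in wild type and fewer did in Lmo2tg. All 22 DNA replication genes rose in wild type (median log2 fold 1.07) and all 22 differed, being more negative in Lmo2tg, where 5 rose and 1 fell in the same model (median 0.05). All 22 mitosis genes also rose in wild type and were more negative in Lmo2tg, where 11 rose, with medians of 1.50 in wild type and 0.25 in Lmo2tg. Of all genes 23.7% were more negative. Without the replicate block 11 replication and 22 mitosis genes differed. Mki67 was at 0.40 in Lmo2tg and 1.47 in wild type (difference -1.07, adjusted p = 1.33e-05). Rrm2 was at 0.65 in Lmo2tg and 1.75 in wild type (difference -1.10, adjusted p = 1.19e-05). Ccne1 was at 0.65 in Lmo2tg and 2.04 in wild type (difference -1.39, adjusted p = 5.62e-06). Of 21 Myc and ribosome biogenesis genes 17 were more negative and 3 more positive (medians -0.11 and 0.54 in Lmo2tg and wild type), and of 17 glycolysis genes 13 were more negative and 2 more positive. Of 18 cholesterol synthesis genes 15 were more negative. Without the replicate block 10 Myc and ribosome biogenesis, 5 glycolysis and 1 cholesterol synthesis genes were more negative.

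Other groups fell in wild type and not, or less, in Lmo2tg. Of 22 interferon response genes 21 fell in wild type (median -1.39), 2 rose and 2 fell in Lmo2tg (median 0.11), and 20 differed, all more positive in Lmo2tg (16 without the replicate block). Of all genes 33.5% fell in wild type and 25.8% were more positive in Lmo2tg. Of 21 stem and progenitor regulators 15 fell in wild type and 12 were more positive in Lmo2tg, with medians of -1.94 and -0.16. Lyl1 was at -1.12 in Lmo2tg and -4.36 in wild type (difference 3.24, adjusted p = 0.000409). Hhex was at -0.42 in Lmo2tg and -5.37 in wild type (difference 4.95, adjusted p = 0.00324). Erg was at -1.34 in Lmo2tg and -6.77 in wild type (difference 5.43, adjusted p = 0.000455). Nfe2 was at -1.12 in Lmo2tg and -5.24 in wild type (difference 4.12, adjusted p = 0.000509). Summed over the 12 B cell markers, the wild-type level was 43.9 to 46.2 CPM in DN2/3 libraries and 12.5 to 16.1 CPM in DN4 libraries. The Lmo2tg sum was higher at DN4, and the part of such cells in these differences was not tested. Of 16 immediate early genes 12 were more positive in Lmo2tg, and 6 without the replicate block. Among the largest rises of Lmo2tg, Btla, Egr3 and Tnfrsf9 did not pass in wild type. Btla was at 6.32 in Lmo2tg and 0.34 in wild type (difference 5.98, adjusted p = 1.55e-06). Egr3 was at 5.47 in Lmo2tg and 0.01 in wild type (difference 5.46, adjusted p = 0.000123). Tnfrsf9 was at 4.97 in Lmo2tg and -0.29 in wild type (difference 5.26, adjusted p = 1.34e-05). Trpm1, the largest rise, also rose in wild type, at 6.69 in Lmo2tg and 4.49 in wild type (difference 2.20, adjusted p = 0.00985), a difference that was not called without wild-type pair 1 (adjusted p = 0.0675) or without the replicate block (adjusted p = 0.293).

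The smallest adjusted p-values of the difference from wild type, among genes of at least 5 CPM, belonged to Slc9a9, Cyth4, Gng2, Plcb2, Tec and Wdr13 on the positive side. Slc9a9, an endosomal proton exchanger gene, had 49.5, 30.5, 44.7, 36.4 and 43.3 CPM at DN2/3 and 103, 67.2, 89.6, 49.7 and 88.7 CPM at DN4, without overlap, and log2 folds of 0.94 in Lmo2tg and -1.23 in wild type (difference 2.16, adjusted p = 8.16e-07). Gng2, a G protein gamma subunit gene, had 1.63, 1.38, 0.330, 0.328 and 0.542 CPM at DN2/3 and 37.7, 8.72, 9.66, 1.15 and 6.92 CPM at DN4 and log2 folds of 3.73 in Lmo2tg and -3.17 in wild type (difference 6.89, adjusted p = 8.16e-07), a rise against a fall. Mean levels of Gng2 in wild type were 16.4 CPM at DN2/3 and 2.01 CPM at DN4, so the genotypes were apart at both stages. The signalling genes Plcb2 and Tec and the Arf exchange factor gene Cyth4 fell in wild type and fell by less or did not pass in Lmo2tg. Plcb2 was at -0.20 in Lmo2tg and -1.70 in wild type (difference 1.49, adjusted p = 8.16e-07). Tec was at -0.32 in Lmo2tg and -2.05 in wild type (difference 1.73, adjusted p = 8.16e-07). Cyth4 was at -0.09 in Lmo2tg and -1.87 in wild type (difference 1.78, adjusted p = 8.16e-07). Wdr13 fell in both, at -0.79 in Lmo2tg and -2.25 in wild type (difference 1.47, adjusted p = 8.16e-07). On the negative side stood H2-Q2, Chchd3, Lrrc42, Kif2c, Birc5 and Tpst1. Kif2c, a kinesin of mitosis, was at 0.15 in Lmo2tg and 1.67 in wild type (difference -1.51, adjusted p = 2.03e-06). Birc5, a subunit of the mitotic Aurora B complex, was at 0.30 in Lmo2tg and 1.65 in wild type (difference -1.36, adjusted p = 2.68e-06). The mitochondrial gene Chchd3 was at 0.27 in Lmo2tg and 1.35 in wild type (difference -1.08, adjusted p = 1.73e-06). Lrrc42 was at 0.40 in Lmo2tg and 1.51 in wild type (difference -1.11, adjusted p = 1.76e-06). The sulfotransferase gene Tpst1 was at -0.06 in Lmo2tg and 1.43 in wild type (difference -1.49, adjusted p = 2.68e-06). H2-Q2, at 0.49 in Lmo2tg and 3.50 in wild type (difference -3.01, adjusted p = 1.1e-06), belongs to a family of near-identical MHC class I genes and is uncertain.

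With Ldb1 deleted beside the transgene, the stage change differed from that of Lmo2tg in fewer genes, 1933 of 14371 (13.5%), with 1035 more positive (7.2%) and 898 more negative (6.25%) in Lmo2tg. In Ldb1-KO 6934 genes changed with stage (48.2%, with 22.5% higher and 25.7% lower). The count of differences rose to 3503 without Lmo2tg pair 4 and fell to 999 and 1006 without Ldb1-KO pairs 1 and 5, and it was 195 without the replicate block. All 22 replication and all 22 mitosis genes were more negative in Lmo2tg, with medians in Ldb1-KO of 0.72 and 0.96. These calls rested on the block: without it edgeR called 0 genes of either list, with 4 replication and 14 mitosis genes at an unadjusted p under 0.05, while DESeq2 with the block called all 22 of each. Mki67 was at 0.40 in Lmo2tg and 1.04 in Ldb1-KO (difference -0.64, adjusted p = 0.0031). Rrm2 was at 0.65 in Lmo2tg and 1.43 in Ldb1-KO (difference -0.78, adjusted p = 0.00103). Il2ra fell further in Ldb1-KO, at -3.56 in Lmo2tg and -5.02 in Ldb1-KO (difference 1.46, adjusted p = 0.0175). Kit was at -0.57 in Lmo2tg and -1.78 in Ldb1-KO (difference 1.22, adjusted p = 0.00617). The Il2ra difference was not called without Lmo2tg pair 3 (adjusted p = 0.0539) or Ldb1-KO pair 5 (adjusted p = 0.0509). Cd8a did not differ past the threshold, at 2.84 in Lmo2tg and 3.18 in Ldb1-KO (difference -0.34, adjusted p = 0.62). Of 12 Notch genes 4 were more positive in Lmo2tg, against 7.2% of all genes. Without the replicate block edgeR called 0 of the 12, with 3 at an unadjusted p under 0.05, while DESeq2 with the block called 5. Of 21 stem and progenitor regulators 7 were more positive, and 6 without the block. Lyl1 did not pass, at -1.12 in Lmo2tg and -2.28 in Ldb1-KO (difference 1.16, adjusted p = 0.0969). Neither did Hhex, at -0.42 in Lmo2tg and -2.61 in Ldb1-KO (difference 2.19, adjusted p = 0.0654). Erg did not either, at -1.34 in Lmo2tg and -3.58 in Ldb1-KO (difference 2.24, adjusted p = 0.0855). All 3 were called without Ldb1-KO pair 3 (adjusted p = 0.0328, 0.0382 and 0.044), Hhex also without Ldb1-KO pair 4 (adjusted p = 0.0402), and Erg also with DESeq2 (adjusted p = 0.0326). Btla rose less in Ldb1-KO, at 6.32 in Lmo2tg and 3.26 in Ldb1-KO (difference 3.06, adjusted p = 0.00116). Without the replicate block the differences of Mki67, Rrm2, Il2ra, Kit and Btla were not called (adjusted p = 0.333, 0.216, 0.0501, 0.123 and 0.076).

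The smallest adjusted p-values of the difference from Ldb1-KO belonged, on the positive side, to Scin, Adrbk2, Gng2 and Cd44. Scin, an actin-severing protein gene, had 31.5, 54.1, 88.2, 26.7 and 59.6 CPM at DN2/3 and 12.4, 14.1, 55.9, 7.25 and 21.0 CPM at DN4 and log2 folds of -1.45 in Lmo2tg and -7.13 in Ldb1-KO (difference 5.67, adjusted p = 1.06e-06), a fall in both that was smaller in Lmo2tg. The receptor kinase gene Adrbk2 was at 0.18 in Lmo2tg and -3.34 in Ldb1-KO (difference 3.52, adjusted p = 1.73e-05). Gng2 was at 3.73 in Lmo2tg and -0.87 in Ldb1-KO (difference 4.60, adjusted p = 8.57e-05). Its mean levels were near each other at DN4, 12.8 CPM in Lmo2tg and 10.8 CPM in Ldb1-KO. They were apart at DN2/3, 0.843 CPM in Lmo2tg and 19.3 CPM in Ldb1-KO. Cd44 was at 1.25 in Lmo2tg and -2.38 in Ldb1-KO (difference 3.63, adjusted p = 8.57e-05), a rise against a fall. On the negative side Lrrc42 was at 0.40 in Lmo2tg and 1.18 in Ldb1-KO (difference -0.78, adjusted p = 0.000235). Tmem120b was at -0.12 in Lmo2tg and 0.67 in Ldb1-KO (difference -0.79, adjusted p = 0.000405). Tcf19, a cell cycle gene, was at 0.13 in Lmo2tg and 1.21 in Ldb1-KO (difference -1.08, adjusted p = 0.000449). Arhgap19, a GTPase-activating protein gene of mitosis, had 343, 214, 194, 221 and 208 CPM at DN2/3 and 101, 121, 128, 163 and 133 CPM at DN4, without overlap (log2 fold -0.84, SE 0.17, adjusted p = 0.016). It was at -0.85 in Lmo2tg and 0.68 in Ldb1-KO (difference -1.53, adjusted p = 0.000262), a fall against a rise. Lost on leaving out a pair was the stage call of Arhgap19 without pair 2 (adjusted p = 0.0518). The differences of Adrbk2 and Tcf19 were not called without the replicate block (adjusted p = 0.167 and 0.0634). The 2 stage changes compared in each of these tests share no library. Names of same-numbered Lmo2tg and Ldb1-KO libraries are adjacent, while the block was set within each genotype. Whether such libraries vary together was not tested.

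**Figure D4:**
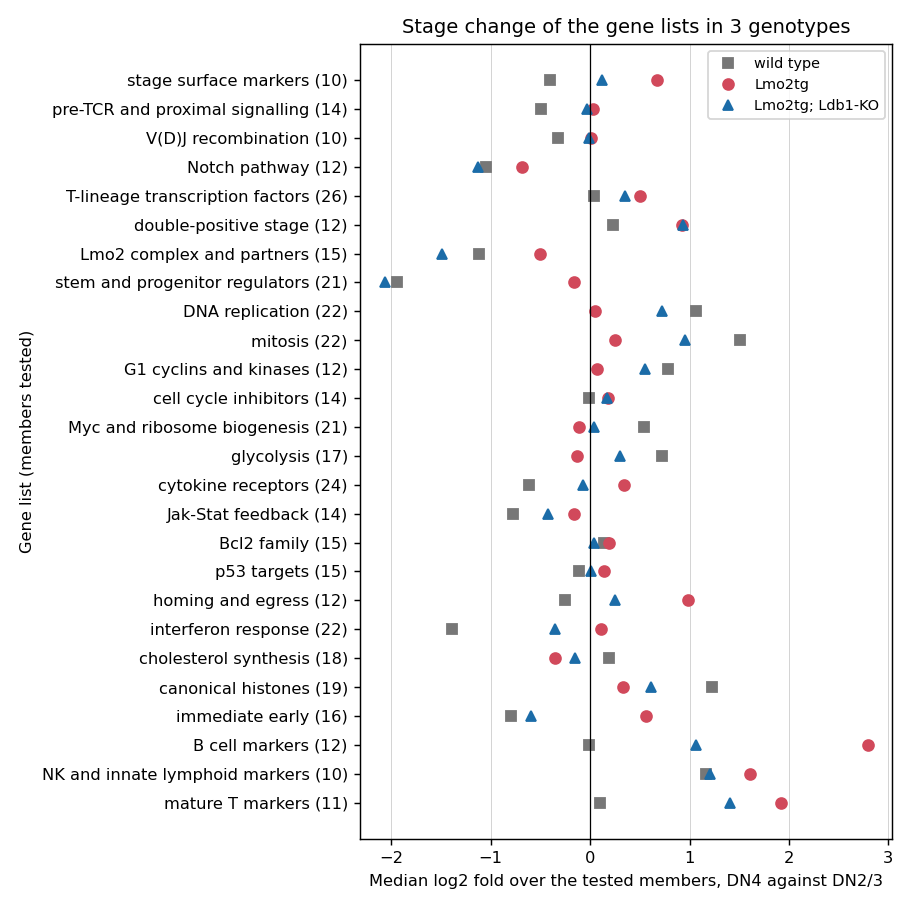
Median log2 fold of DN4 against DN2/3 over the tested members of each list of at least 10 genes (number in brackets), in wild type (squares), Lmo2tg (circles) and Lmo2tg; Ldb1-KO (triangles), from the model of all libraries. For DNA replication the medians are 1.07, 0.05 and 0.72, for mitosis 1.50, 0.25 and 0.96, and for interferon response -1.39, 0.11 and -0.35.

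The spread between pairs was widest, among called genes of at least 20 CPM at both stages, in Itm2a, Etv5, Ccr9, Erg, Nr4a1 and Pdcd1. Itm2a, a membrane protein gene of activated thymocytes, had 32.5, 68.1, 50.3, 53.7 and 38.5 CPM at DN2/3 and 473, 488, 188, 64.9 and 169 CPM at DN4 (log2 fold 2.23, SE 0.45, adjusted p = 0.0156), and its log2 changes in pairs 1 to 5 were 3.84, 2.83, 1.89, 0.27 and 2.12. Pdcd1, the inhibitory receptor PD-1, had 17.0, 22.8, 26.4, 24.3 and 24.2 CPM at DN2/3 and 116, 108, 64.0, 27.1 and 74.8 CPM at DN4 (log2 fold 1.64, SE 0.34, adjusted p = 0.0162), with changes of 2.74, 2.23, 1.26, 0.15 and 1.61. In both, pair 4 was near 0. The Ets factor gene Etv5 had 13.4, 32.0, 16.4, 47.5 and 36.6 CPM at DN2/3 and 52.4, 32.0, 90.8, 63.0 and 195 CPM at DN4 (log2 fold 1.48, SE 0.40, adjusted p = 0.0381) and was level in pair 2. By contrast, the log2 changes of Il2ra were -4.71, -3.61, -2.73, -3.46 and -3.26 and those of Cd8a 4.02, 1.89, 2.95, 2.65 and 2.63, with pair 4 inside the range of the others in both. Leaving out 1 pair was enough to end the calls of Itm2a without pair 2 or 3 (adjusted p = 0.055 to 0.0556), Etv5 without pair 1, 3 or 5 (adjusted p = 0.108 to 0.119) and Pdcd1 without pair 2, 3 or 5 (adjusted p = 0.0511 to 0.0569).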

How the data were processed

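The authors deposited raw counts per gene symbol for 28 libraries. Reads were aligned with STAR 2.5.2a to mm10 and counted with featureCounts 1.4.6-p3, per the submitters' processing notes. Libraries were paired-end, 101 bases a read, from a kit that does not mark strand, per the labels' protocols, so a gene and its antisense partner cannot be told apart. The annotation, the strand setting and the treatment of reads with several matches are not given in these sources. Totals ran from 28.1 to 106.9 M counts, and no 2 replicates agreed within sampling noise (lowest chi-square per degree of freedom 28.5).

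Stage was tested in Lmo2tg with edgeR 4.0.16 in R 4.3.3 (quasi-likelihood, two-sided, TMM, filterByExpr, replicate number as a block). Genes were called at a Benjamini-Hochberg adjusted p under 0.05 over all genes tested. Differences from wild type and from Ldb1-KO are interactions in 1 edgeR model of all 28 libraries with the block. The numbers come from the titles and the samples deviate together by number, with r of 0.51 to 0.65 in Lmo2tg pairs and at most 0.07 otherwise (lowest r in any genotype 0.15). On counts simulated for the Lmo2tg comparison (12906 genes), 91% of 2-fold and 98% of 4-fold changes were recovered and 5.5% of calls were false. Each fold was planted in 100 genes above a set mean level, was the same in all pairs, and noise was drawn for each gene alone. The rates do not cover lower genes or changes whose size differs between pairs, as it did in the real pairs.

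The members and the gene lists were chosen with earlier results of these data known. Named genes are the 12 largest rises and falls (at least 5 CPM, the same direction in all pairs, named genes only), the members of the lists on staging, receptor signalling, recombination, Notch, lineage factors and Lmo2, 3 called members of each other list, the smallest adjusted p-values of the differences (6 per direction from wild type, 4 from Ldb1-KO) and the 6 most variable called genes; a few genes that these rules name are not reported here. Log2 changes of single pairs use CPM plus 0.5. Coordinates are those of mm10 genes matched by symbol. Alternatives were no block, RLE size factors, no filter, DESeq2 1.42.0, limma-voom (limma 3.58.1), other sets of libraries in the fit and each pair left out.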

Additional observations from a re-analysis of the deposited data

Results flagged for a closer look

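In Lmo2tg 1 pair stood apart from the other 4 in a few measures, by Dixon's test for an extreme value, which chance meets in about 1 group in 20. The share of genes that moved as in the other pairs was 78.5% of 2924 genes in pair 4. It was 92.8% to 98.3% in the rest, each from fewer genes (1089 to 1415). Among the 154 measures tested, pair changes of named genes included, 8 had such a value, close to the 1 in 20 that chance gives. The log2 change stood apart in pair 1 for Ets2 (2.37) and Satb1 (1.97), and in pair 3 for Lck (-0.66), Ldb1 (-0.68) and Tcf4 (-0.094). It also stood apart in pair 5 for Slc40a1 (-1.22) and in pair 4 for Slc9a9 (0.44).

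Stage changes that differed between genotypes were tested as interactions. They differed from wild type in 7106 genes. The change was more positive in Lmo2tg, by the log2 units in brackets, in Gng2 (6.89), Btla (5.98), Egr3 (5.46), Erg (5.43), Tnfrsf9 (5.26), Hhex (4.95), Nfe2 (4.12) and Cd44 (4.04). It was more positive by less in Lyl1 (3.24), Dtx1 (2.22), Trpm1 (2.20), Slc9a9 (2.16), Cd69 (2.16), Cyth4 (1.78), Il2ra (1.74) and Tec (1.73). The smallest such differences were in Notch3 (1.53), Plcb2 (1.49), Wdr13 (1.47), Hes1 (1.44) and Kit (1.35). The change was more negative in H2-Q2 (-3.01), Cd8a (-2.72), Cd8b1 (-2.70), Cd2 (-2.38), Kif2c (-1.51), Tpst1 (-1.49), Ccne1 (-1.39) and Birc5 (-1.36). Smaller negative differences were found in Lrrc42 (-1.11), Rrm2 (-1.10), Chchd3 (-1.08) and Mki67 (-1.07). From Ldb1-KO they differed in 1933 genes. Named genes more positive in Lmo2tg were Scin (5.67), Gng2 (4.60), Cd44 (3.63), Adrbk2 (3.52), Btla (3.06), Il2ra (1.46) and Kit (1.22). Those more negative were Arhgap19 (-1.53), Tcf19 (-1.08), Tmem120b (-0.79), Lrrc42 (-0.78), Rrm2 (-0.78) and Mki67 (-0.64). The test of each named gene stands beside its folds in the results.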

How the results depend on the processing

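The pairing set the number of calls. For the stage change in Lmo2tg, 2356 genes were called, 321 without the replicate block and 5569 with all libraries in the fit. That fit has 1 spread estimate over more samples, among them wild-type libraries that lay closer together. Between replicates of a group, chi-square per degree of freedom was 28.5 to 118 in wild type and 45.1 to 518 in Lmo2tg. The p-values of that fit may therefore be too small for Lmo2tg, which was not tested. RLE size factors, no filter on low counts, DESeq2 and limma-voom gave 2445, 2412, 3453 and 2666, and leaving out a pair gave 1089 to 2924. The difference from wild type held 7106 genes, 3684 without the replicate block, 6287 with 18 libraries in the fit, 6700 to 7558 under the other settings and 6085 to 7545 with a pair left out. The difference from Ldb1-KO held 1933 genes, 195 without the replicate block, 1074 with 20 libraries in the fit, 1574 to 2789 under the other settings and 999 to 3503 with a pair left out. Beyond the fits with fewer samples, the cause of these moves was not tested. No named gene changed direction past the threshold under any of these alternatives. Of the 119 stage calls named, 68 were lost without the replicate block, 0 with DESeq2, 1 with limma-voom and between 5 and 32 with a pair left out, the fewest without pair 4. Of the 33 and 13 named differences from wild type and from Ldb1-KO, 2 and 7 were lost without the replicate block. Depth limits genes under the count filter, for which no change was tested, and with 5 pairs small changes near the threshold came and went with single pairs.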

Other observations

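A group of genes moved in opposite directions in the 2 genotypes. In the model of all libraries, 675 called genes rose and 2174 fell by over 2-fold in wild type, against 716 and 498 in Lmo2tg. Large changes were thus mostly falls in wild type and more often rises in Lmo2tg. In the same model, 114 genes were called with stage in both Lmo2tg and wild type, changed by over 2-fold in each and had opposite signs. Of these, 113 were higher at DN4 in Lmo2tg and lower in wild type, and 1 was the reverse. With no limit on size the split was more even: of 680 genes called in both genotypes with opposite signs and stage changes that differed, 389 were higher and 291 lower at DN4 in Lmo2tg. In a group mean 46 of the 114 reached 5 CPM, all of them higher at DN4 in Lmo2tg. The genes named here were chosen after their values were seen. Gpr183, an oxysterol receptor that guides lymphocyte migration, had log2 folds of 3.40 in Lmo2tg and -3.06 in wild type (difference 6.45, adjusted p = 1.81e-06). Rgs1, a brake on chemokine receptor signalling, had 1.96 and -2.52 (difference 4.47, adjusted p = 1.49e-05). Cd55, a surface inhibitor of complement, had 2.23 and -2.62 (difference 4.85, adjusted p = 0.000189). The wild-type falls of Gpr183, Rgs1 and Cd55 were between low mean levels. From DN2/3 to DN4 these went from 2.22 to 0.287 CPM, from 4.03 to 0.75 CPM and from 0.917 to 0.156 CPM. Among the means of wild type and Lmo2tg, these genes reached 5 CPM only at DN4 in Lmo2tg. The circadian factor gene Npas2 had 3.26 and -4.64 (difference 7.90, adjusted p = 2.9e-06). In Lmo2tg it went from 0.0529 CPM at DN2/3 to 0.417 CPM at DN4, both near background. In wild type it went from 7.06 CPM at DN2/3 to 0.282 CPM at DN4.

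Across all 14371 genes, the log2 folds of Lmo2tg and wild type had a Pearson r of 0.34 and a slope through the origin of 0.23, and those of Lmo2tg and Ldb1-KO had 0.63 and 0.52. These are descriptions across genes, which are not independent replicates, and the genotypes share no library.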
